A study of Homo sapiens with 21 samples.

Results

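The genes described here are the Janus kinases JAK1, JAK2 and TYK2, the transcription factors STAT2, STAT3, STAT5A, STAT5B and STAT6, and the feedback inhibitor SOCS3. They were picked by gene symbol as members of a signalling family, and make up 9 of the 28395 genes in the deposited count table. All of these 9 genes passed the filter on low counts and entered the test with 16036 genes in total. RNA came from Hs578T, an established triple-negative breast cancer line, harvested 8 h after the start of treatment and sequenced from polyA-selected, unstranded libraries. There were 7 groups of 3 libraries. Beside DMSO, 4 groups received a single agent, namely THZ531 at 0.1 μM or at 1 μM, lapatinib (3.16 μM) or nilotinib (1 μM). The last 2 groups received THZ531 at 0.1 μM together with lapatinib or nilotinib at those doses, and are named lapatinib + THZ531 and nilotinib + THZ531 below. THZ531 inhibits the transcriptional kinases CDK12 and CDK13, lapatinib the receptors EGFR and ERBB2, and nilotinib ABL1 and related tyrosine kinases. The study describes its samples as coming from independent experiments, whereas the sample labels give only replicate numbers.

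Cytokine receptors carry Janus kinases on their intracellular tails. When a cytokine draws the receptor chains together, the kinases phosphorylate the receptor and the STAT proteins that dock on it, and the STATs then pair up, move into the nucleus and bind DNA. Among the genes that STAT3 switches on is SOCS3, whose protein blocks the kinases on the receptor, so that the pathway limits itself. IL6 signalling through STAT3 is well known in triple-negative breast cancer cells.

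Total counts ran from 97612207 to 112229052 per library. Levels are given in CPM, the count of a gene relative to the library total, after scaling by the trimmed mean of M-values (TMM), a method that takes most genes as unchanged. Differences are log2 fold changes (log2 FC) with their standard error (SE) from edgeR's quasi-likelihood test, fitted to all 21 libraries. A gene was called when its p-value, adjusted by the Benjamini-Hochberg method over the 16036 tested genes, was under 0.05, and called strongly changed when the log2 FC was also beyond 1 in either direction. The 9 genes were counted deeply except for STAT5A, which had 98 to 332 counts per library. For the others, the lowest count in any library was 811 (JAK2) and the highest 55043 (JAK1). The DMSO libraries had high levels of mesenchymal genes, with mean levels of 6845 CPM for VIM, 2827 for SPARC, 1412 for CD44, 1374 for FN1 and 531 for CDH2. Epithelial EPCAM and CDH1 were at 0.0364 and 0.205 CPM and KRT8 at 20.8. The hormone receptors were low or absent, with ESR1 at 0.364 CPM and PGR at 0 counts, and ERBB2 was at 37.5 CPM. Markers of immune and endothelial cells were close to absent, with PTPRC at 1.05 CPM, PECAM1 at 0.378 and CD3E at 0 counts in DMSO.

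Levels can be compared between genes only per length, as CPM per kilobase of the reference transcript (RPKM). In DMSO, JAK1 was the most abundant of the 9 at 66.4 ± 1.04 RPKM (SD, n = 3), followed by STAT6 at 23.0 ± 0.413 and STAT3 at 18.6 ± 0.385. TYK2 (13.2 ± 0.920 RPKM) and SOCS3 (12.7 ± 0.931 RPKM) lay within each other's spread. STAT5B had 7.48 ± 0.386 RPKM, STAT2 4.40 ± 0.262, JAK2 2.75 ± 0.167 and STAT5A 0.658 ± 0.0453. JAK1 thus stood far above its partner kinases JAK2 and TYK2 per length, and STAT5B above its close relative STAT5A. The order from JAK1 down to STAT5A was nearly the same in all 7 groups. STAT3 and STAT6 changed places with both combinations, where they lay within the replicate spread of each other, at 27.2 ± 0.714 and 25.9 ± 2.03 RPKM with lapatinib + THZ531. They also lay within the spread of each other with 0.1 μM and with 1 μM THZ531. TYK2 and SOCS3 overlapped in their spread with DMSO, 0.1 μM THZ531 and lapatinib. They were apart with nilotinib, both combinations and 1 μM THZ531, under which TYK2 had 19.9 ± 1.35 RPKM and SOCS3 7.45 ± 1.09.

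**Figure D1:**
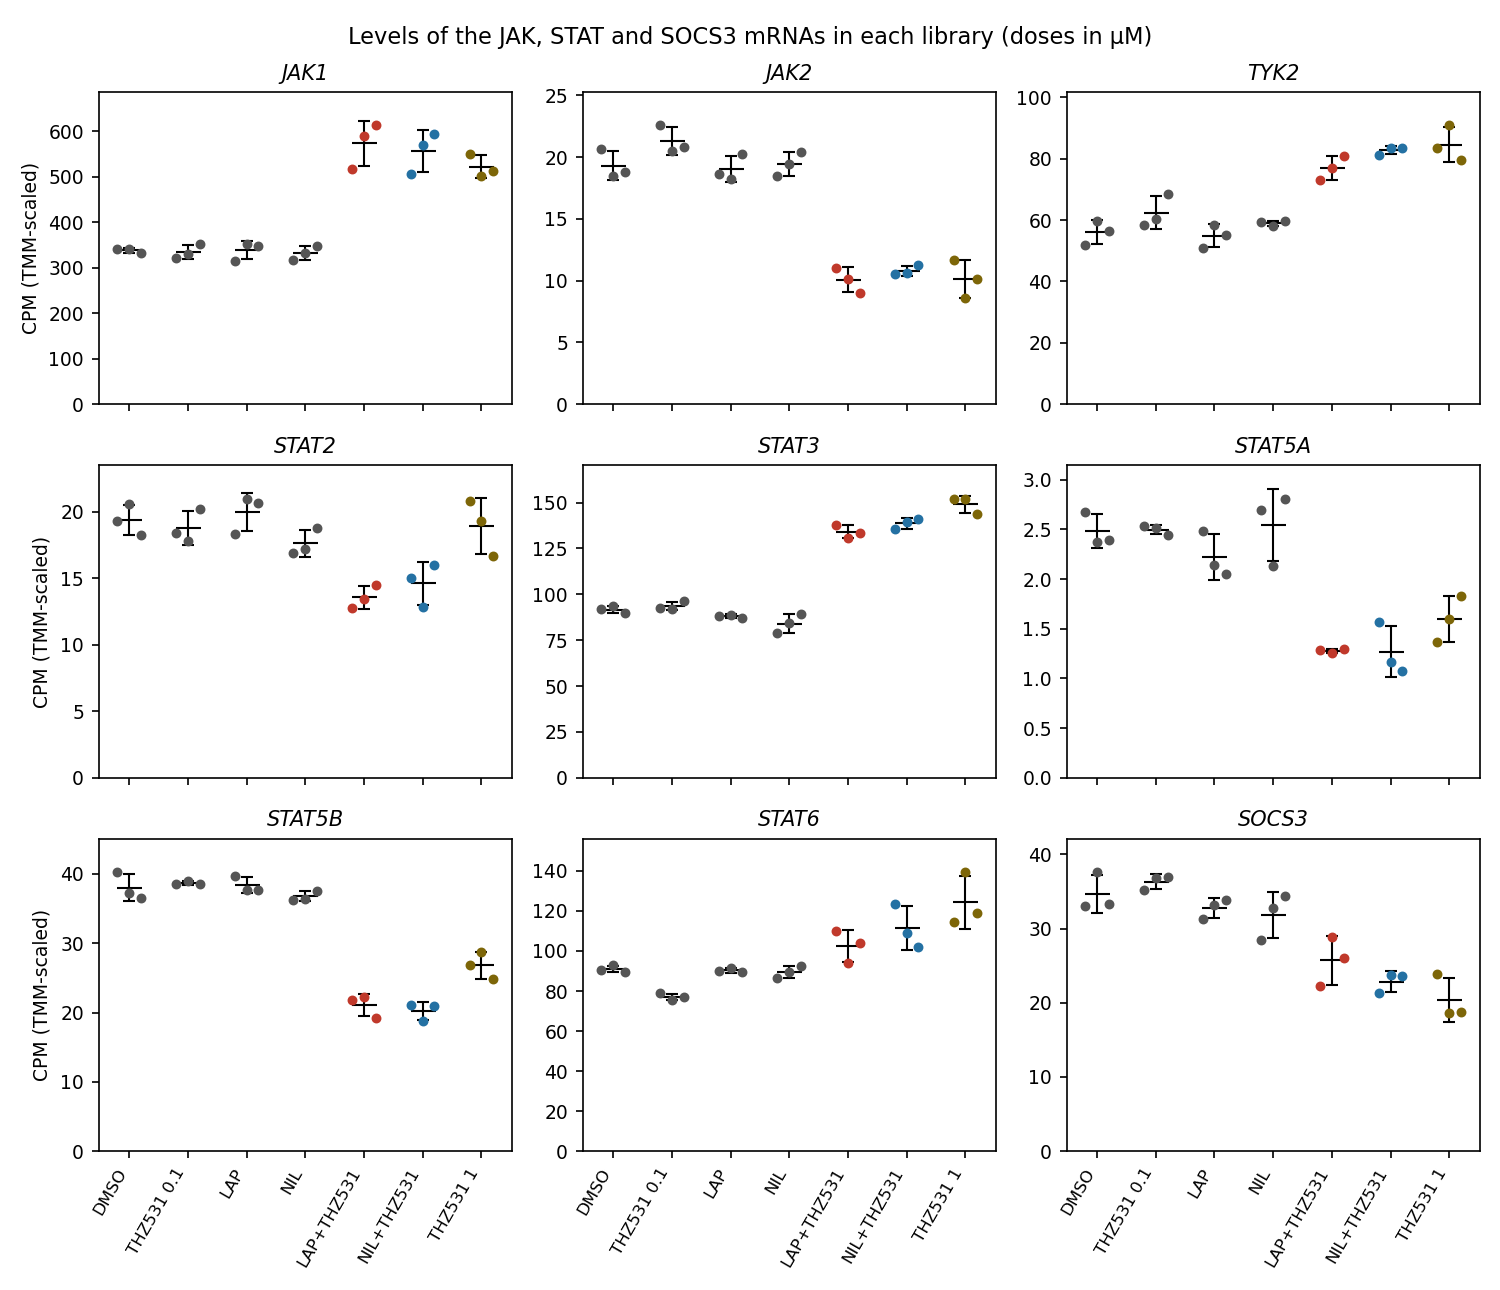
Level of each of the 9 genes in each of the 21 libraries, in CPM on a linear axis that starts at 0, by treatment, with bars for the group mean ± SD. None of the genes is called with 0.1 μM THZ531, lapatinib or nilotinib alone, and with both combinations and 1 μM THZ531 JAK2, STAT5A and STAT5B are lower. JAK1, TYK2 and STAT3 are higher under the TMM scaling used here, but are not called higher when scaled to mitochondrial mRNAs.

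None of the 9 genes was called with 0.1 μM THZ531, lapatinib or nilotinib alone. With 0.1 μM THZ531, edgeR called 0 of 9, where 6.09% of all tested genes were called. At an unadjusted p under 0.05 there were 2 (TYK2 and STAT6), and DESeq2 called 0. With lapatinib, edgeR called 0 of 9 (0.312% of all genes), with 0 at an unadjusted p under 0.05 and 0 by DESeq2. With nilotinib, edgeR called 0 of 9 (0.343% of all genes), with 1 at an unadjusted p under 0.05 (STAT3) and 0 by DESeq2. The log2 FC of the 9 genes lay between -0.24 and 0.16 with 0.1 μM THZ531, between -0.16 and 0.04 with lapatinib and between -0.14 and 0.08 with nilotinib. STAT6 came nearest to a call. It had 90.7, 92.8 and 89.6 CPM in DMSO and 78.8, 75.4 and 76.8 CPM with 0.1 μM THZ531, so that the 3 treated libraries lay below the 3 controls without overlap. Its log2 FC was -0.24 ± 0.08 (SE; edgeR adjusted p = 0.0702). It passed the threshold when the libraries were scaled by library size alone (adjusted p = 0.0278) or when only the groups compared were fitted (adjusted p = 0.0113), over a range of 0.0113 to 0.659 across 10 alternative settings. It also passed without nilotinib + THZ531 replicate 1 (-0.24, adjusted p = 0.0451) or without 1 μM THZ531 replicate 2 (-0.24, 0.0320). STAT3 also lay below the 3 controls without overlap with lapatinib (-0.06, 0.955) and with nilotinib (-0.13, 0.426).

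Most of the 9 genes changed under both combinations and under 1 μM THZ531, and both the kinases and the STATs had members that fell and members that rose. With lapatinib + THZ531, 5 of 9 were called lower (37.8% of all tested genes) and 3 higher (34.3%). With nilotinib + THZ531, 5 were called lower (37.3%) and 4 higher (33.7%), and with 1 μM THZ531, 4 were called lower (36.8%) and 4 higher (33.1%). JAK2, STAT5A, STAT5B and SOCS3 fell under all 3 treatments and under each of the 5 scalings tried, STAT2 fell under the combinations, and JAK1, TYK2 and STAT3 rose under TMM but were not called higher when the libraries were scaled to the mitochondrial mRNAs. None of the 9 was strongly changed against DMSO by edgeR, where 29.2% of all tested genes were with lapatinib + THZ531, 27.3% with nilotinib + THZ531 and 24.6% with 1 μM THZ531. That 0 depended on the libraries and the scaling. Without 1 library, JAK2 reached -1.01 with lapatinib + THZ531 and -1.05 with 1 μM THZ531, and STAT5A -1.14 with nilotinib + THZ531. By library size alone, JAK2, STAT5A and STAT5B were at -1.27, -1.28 and -1.18 with lapatinib + THZ531 and -1.14, -1.27 and -1.21 with nilotinib + THZ531, and with 1 μM THZ531 JAK2 was at -1.19 and SOCS3 at -1.02. Scaled to the mitochondrial mRNAs, JAK2, STAT5A, STAT5B and SOCS3 with all 3 treatments and STAT2 with the combinations were lower by more than 1. The 3 comparisons share their DMSO libraries and so are not independent of each other. In bulk samples such as these, fewer cells with a transcript and less RNA per cell cannot be told apart.

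Of the kinases, JAK2, which signals for receptors of growth hormone, erythropoietin and several interleukins, was the one that fell. It lies on chr9:4984390-5129948 of GRCh38 (plus strand, gene ID 3717). The DMSO libraries had 20.7, 18.5 and 18.8 CPM, and those with lapatinib + THZ531 had 11.0, 10.2 and 9.03 CPM. The libraries with nilotinib + THZ531 had 10.6, 10.6 and 11.3 CPM and those with 1 μM THZ531 11.7, 8.62 and 10.1 CPM. Each of these treated libraries was well below every DMSO library, while the 9 libraries with 0.1 μM THZ531, lapatinib or nilotinib alone stayed within 18.2 to 22.6 CPM. The level thus fell by close to the same amount each time. The log2 FC was -0.94 ± 0.10 (SE; edgeR adjusted p = 3.23e-08) with lapatinib + THZ531, -0.84 ± 0.10 (adjusted p = 1.69e-07) with nilotinib + THZ531 and -0.93 ± 0.10 (adjusted p = 4.47e-08) with 1 μM THZ531, lower in 3 of 3 libraries in each case. As a change in percent of the DMSO level, these were -47.8%, -44.1% and -47.6%.

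JAK1 serves the receptors of the IL6 family, the interferons and many interleukins, and is found on chr1:64833229-65067746 (minus strand, gene ID 3716). It had 342, 341 and 332 CPM in DMSO and 517, 589.8 and 613 CPM with lapatinib + THZ531. With nilotinib + THZ531 it had 506, 569.9 and 595 CPM, and with 1 μM THZ531 550.2, 503 and 513 CPM. These 9 treated libraries all exceeded the DMSO libraries, and those with 0.1 μM THZ531, lapatinib or nilotinib alone, at 315 to 353 CPM, surrounded the DMSO values. JAK1 rose by a log2 FC of 0.76 ± 0.07 (SE; edgeR adjusted p = 8.79e-09), 0.72 ± 0.07 (2.17e-08) and 0.63 ± 0.07 (1.78e-07) with lapatinib + THZ531, nilotinib + THZ531 and 1 μM THZ531, in 3 of 3 libraries each. TYK2, the partner of JAK1 on the receptors of type I interferon, is on chr19:10350533-10380572 (minus strand, gene ID 7297). Its level was 51.9, 59.7 and 56.4 CPM in DMSO, 73.1, 76.9 and 80.9 CPM with lapatinib + THZ531, 81.2, 83.5 and 83.5 CPM with nilotinib + THZ531 and 83.4, 90.8 and 79.6 CPM with 1 μM THZ531. As with JAK1, no treated library of these overlapped DMSO. The log2 FC was 0.46 ± 0.07 (SE; edgeR adjusted p = 1.4e-05), 0.56 ± 0.07 (1.11e-06) and 0.60 ± 0.07 (5.85e-07), higher in 3 of 3 libraries each, and with lapatinib + THZ531 the call was lost when scaled by library size alone (0.13, adjusted p = 0.118) or to the mitochondrial mRNAs (-0.22, 0.141), with 1.99e-12 to 0.141 over the 10 alternatives.

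Among the STATs, the pair STAT5A and STAT5B fell. Both act downstream of prolactin, growth hormone and several interleukins, and they lie side by side on chromosome 17, STAT5B at chr17:42199177-42288370 (minus strand, gene ID 6777) and STAT5A at chr17:42287439-42311943 (plus strand, gene ID 6776). STAT5B had 40.2, 37.3 and 36.5 CPM in DMSO, 21.8, 22.2 and 19.2 CPM with lapatinib + THZ531, 21.1, 18.8 and 20.9 CPM with nilotinib + THZ531 and 26.8, 28.8 and 24.8 CPM with 1 μM THZ531. The combinations reached a lower level than 1 μM THZ531, and all 3 treatments were below DMSO without overlap. STAT5A, the scarcest of the 9, had 2.68, 2.37 and 2.39 CPM in DMSO, 1.29, 1.26 and 1.29 CPM with lapatinib + THZ531, 1.57, 1.17 and 1.08 CPM with nilotinib + THZ531 and 1.36, 1.60 and 1.83 CPM with 1 μM THZ531. Again the treated libraries were all below the DMSO libraries. For STAT5B the log2 FC was -0.85 ± 0.07 (SE; edgeR adjusted p = 2.11e-09), -0.91 ± 0.07 (8.73e-10) and -0.50 ± 0.07 (3.75e-06) with lapatinib + THZ531, nilotinib + THZ531 and 1 μM THZ531. For STAT5A it was -0.95 ± 0.15 (7.84e-06), -0.96 ± 0.15 (7.22e-06) and -0.63 ± 0.14 (0.00062), and both genes were lower in 3 of 3 libraries each time. Reads of these relatives are partly shared. Of the 3671 stretches of 100 bases in the STAT5A reference transcript, 376 (10.2%) also occur, in either orientation, in GENCODE transcripts of STAT5B. In addition, 101 bases of STAT5A exon (2.68%) overlap STAT5B exon on the opposite strand, which unstranded counts cannot separate. Of the 4980 such stretches in STAT5B, 371 (7.45%) occur in STAT5A, while the other 7 genes share 0 stretches with transcripts of any other gene in the GENCODE set.

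STAT3, the main STAT of IL6 family cytokines, is the next gene on that stretch of chromosome 17 (chr17:42313324-42388442, minus strand, gene ID 6774), its end 1381 bases from the end of STAT5A. It had 91.9, 93.4 and 89.6 CPM in DMSO, 138, 131 and 134 CPM with lapatinib + THZ531, 135, 139.7 and 141 CPM with nilotinib + THZ531 and 152, 152 and 144 CPM with 1 μM THZ531. The replicates were tight, and all of these treated libraries were above all DMSO libraries, opposite to its neighbours STAT5A and STAT5B. STAT3 rose by a log2 FC of 0.55 ± 0.05 (SE; edgeR adjusted p = 1.3e-08), 0.60 ± 0.05 (3.86e-09) and 0.70 ± 0.05 (4.74e-10) in that order of treatments, in 3 of 3 libraries each. STAT6, which mediates the response to IL4 and IL13, is at chr12:57095408-57111362 (minus strand, gene ID 6778). Besides the DMSO values given above, it had 109.8, 93.9 and 104 CPM with lapatinib + THZ531, 123, 109 and 102 CPM with nilotinib + THZ531 and 115, 139 and 119 CPM with 1 μM THZ531. The lowest library of lapatinib + THZ531 lay just above the highest DMSO library, and the other treatments were further away. STAT6 rose with nilotinib + THZ531 (log2 FC 0.29 ± 0.08, edgeR adjusted p = 0.00211) and 1 μM THZ531 (0.45 ± 0.08, 3.15e-05), but missed the threshold with lapatinib + THZ531 (0.17 ± 0.08, 0.0502). With nilotinib + THZ531 it was not called by library size alone (-0.01, 0.914) or with the mitochondrial mRNAs (-0.32, 0.0586). With 1 μM THZ531 it was not called with the mitochondrial mRNAs (-0.09, 0.658). The value with lapatinib + THZ531 was called under 6 of 10 alternatives, which gave adjusted p-values of 0.00188 to 0.0881. These include DESeq2 (adjusted p = 0.00942) and, in the opposite direction, the scaling to mitochondrial mRNAs (-0.51). It was also called without lapatinib + THZ531 replicate 2 (0.23, adjusted p = 0.0163), nilotinib + THZ531 replicate 1 (0.17, 0.0332) or 3 (0.17, 0.0424), or 1 μM THZ531 replicate 1 (0.17, 0.0444) or 2 (0.17, 0.0276). Its exons overlap those of NAB2 on the opposite strand over 69 bases (1.74%).

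STAT2 was called with the combinations but not with 1 μM THZ531, and was called lower with each combination than with 1 μM THZ531, for nilotinib + THZ531 not in every fit. STAT2 acts with IRF9 in driving interferon-stimulated genes, and is located at chr12:56341597-56360107 (minus strand, gene ID 6773). Its levels were 19.3, 20.6 and 18.3 CPM in DMSO, 12.8, 13.4 and 14.5 CPM with lapatinib + THZ531, 15.0, 12.8 and 16.0 CPM with nilotinib + THZ531 and 20.8, 19.3 and 16.6 CPM with 1 μM THZ531. Both combinations were below DMSO without overlap, whereas the libraries with 1 μM THZ531 spread across the DMSO values. STAT2 fell with lapatinib + THZ531 (log2 FC -0.52 ± 0.10, edgeR adjusted p = 7.5e-05) and nilotinib + THZ531 (-0.41 ± 0.10, 0.000817), lower in 3 of 3 libraries each. With 1 μM THZ531 the log2 FC was -0.03 ± 0.10 (adjusted p = 0.758). The latter value depended on the scaling. It was called lower by library size alone (-0.29, adjusted p = 0.0111) and by the mitochondrial mRNAs (-0.59, adjusted p = 0.000209), and was positive with upper-quartile scaling (0.17), with adjusted p-values of 0.000209 to 0.972 over the 10 alternatives.

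SOCS3 lies at chr17:78356778-78360925 (minus strand, gene ID 9021) and is the shortest of the 9 genes at 4.15 kb, with 2 exons. SOCS3 had 33.1, 37.6 and 33.2 CPM in DMSO. It had 22.2, 28.8 and 26.1 CPM with lapatinib + THZ531, 21.2, 23.7 and 23.6 CPM with nilotinib + THZ531 and 23.8, 18.6 and 18.8 CPM with 1 μM THZ531. All of these libraries were below every DMSO library, but lapatinib + THZ531 replicate 2 reached into the range of the libraries with 0.1 μM THZ531, lapatinib or nilotinib alone (28.4 to 36.9 CPM). SOCS3 fell while STAT3, its known inducer, rose at the level of mRNA under TMM. The log2 FC of SOCS3 was -0.43 ± 0.10 (SE; edgeR adjusted p = 0.00102) with lapatinib + THZ531, -0.60 ± 0.10 (3.56e-05) with nilotinib + THZ531 and -0.76 ± 0.10 (2.02e-06) with 1 μM THZ531, lower in 3 of 3 libraries each. In percent of the DMSO level, the changes were -25.7%, -34.0% and -41.1%.

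**Figure D2:**
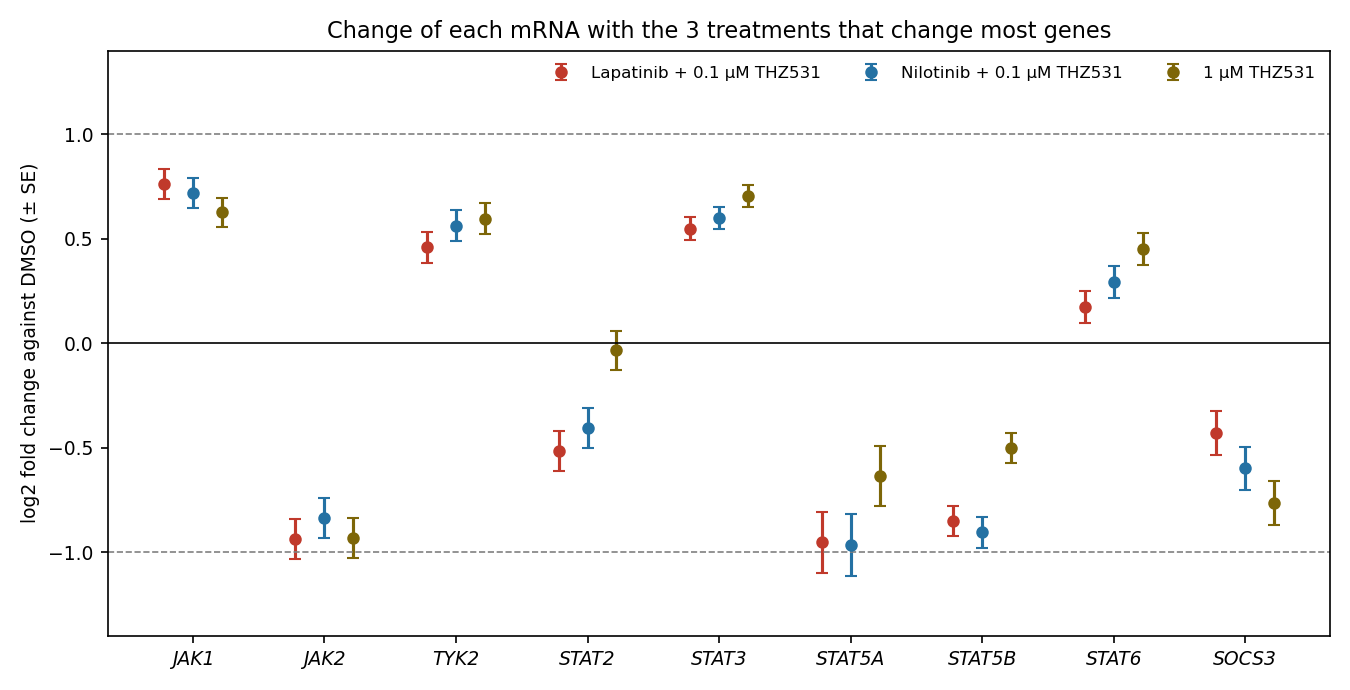
Log2 FC against DMSO (points, with bars for the SE) of the 9 genes with lapatinib + THZ531, nilotinib + THZ531 and 1 μM THZ531, with dashed lines at -1 and 1. JAK2, STAT5A, STAT5B and SOCS3 lie below 0 with all 3 treatments, STAT2 with the combinations, and the genes above 0 under TMM come to lie near 0 or below when scaled to mitochondrial mRNAs.

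How far the rises and falls stood from 0 depended on how the libraries were scaled. The median log2 FC of all tested genes was -0.01, -0.01 and -0.01 under TMM with lapatinib + THZ531, nilotinib + THZ531 and 1 μM THZ531. It was -0.69, -0.63 and -0.55 when the libraries were scaled by the 13 mitochondrial mRNAs, -0.34, -0.31 and -0.27 by library size alone, and 0.15, 0.13 and 0.19 with upper-quartile scaling. The mitochondrial mRNAs are made by another polymerase than nuclear genes. Under that scaling, 91.7%, 92.0% and 92.4% of the called genes were lower, against 52.4%, 52.5% and 52.7% under TMM, 69.8%, 69.7% and 68.5% by library size alone, and 44.9%, 45.6% and 42.4% with upper-quartile scaling. The genes that rose under TMM then came to lie near 0 or below. JAK1 had a log2 FC of 0.07, 0.09 and 0.08, TYK2 -0.22, -0.05 and 0.06, STAT3 -0.13, -0.02 and 0.16 and STAT6 -0.51, -0.32 and -0.09, and of these only STAT6 with lapatinib + THZ531 was called, as lower. Of the 9 genes, 6, 5 and 5 were called lower under this scaling (58.4%, 55.9% and 52.5% of all tested genes) and 0 higher (5.30%, 4.83% and 4.35%). The falls became larger, with -1.62, -1.46 and -1.49 for JAK2, -1.64, -1.58 and -1.17 for STAT5A, -1.53, -1.53 and -1.05 for STAT5B and -1.11, -1.22 and -1.32 for SOCS3. With upper-quartile scaling they were smaller but still called, with -0.78, -0.70 and -0.73 for JAK2 and -0.27, -0.46 and -0.56 for SOCS3. Scaling to the mitochondrial mRNAs also moved the median of all tested genes to -0.15 with lapatinib alone and -0.18 with nilotinib alone. With 0.1 μM THZ531 it was 0.01. That scaling thus shifted groups in which few genes were called under TMM (0.312% with lapatinib and 0.343% with nilotinib).

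**Figure D3:**
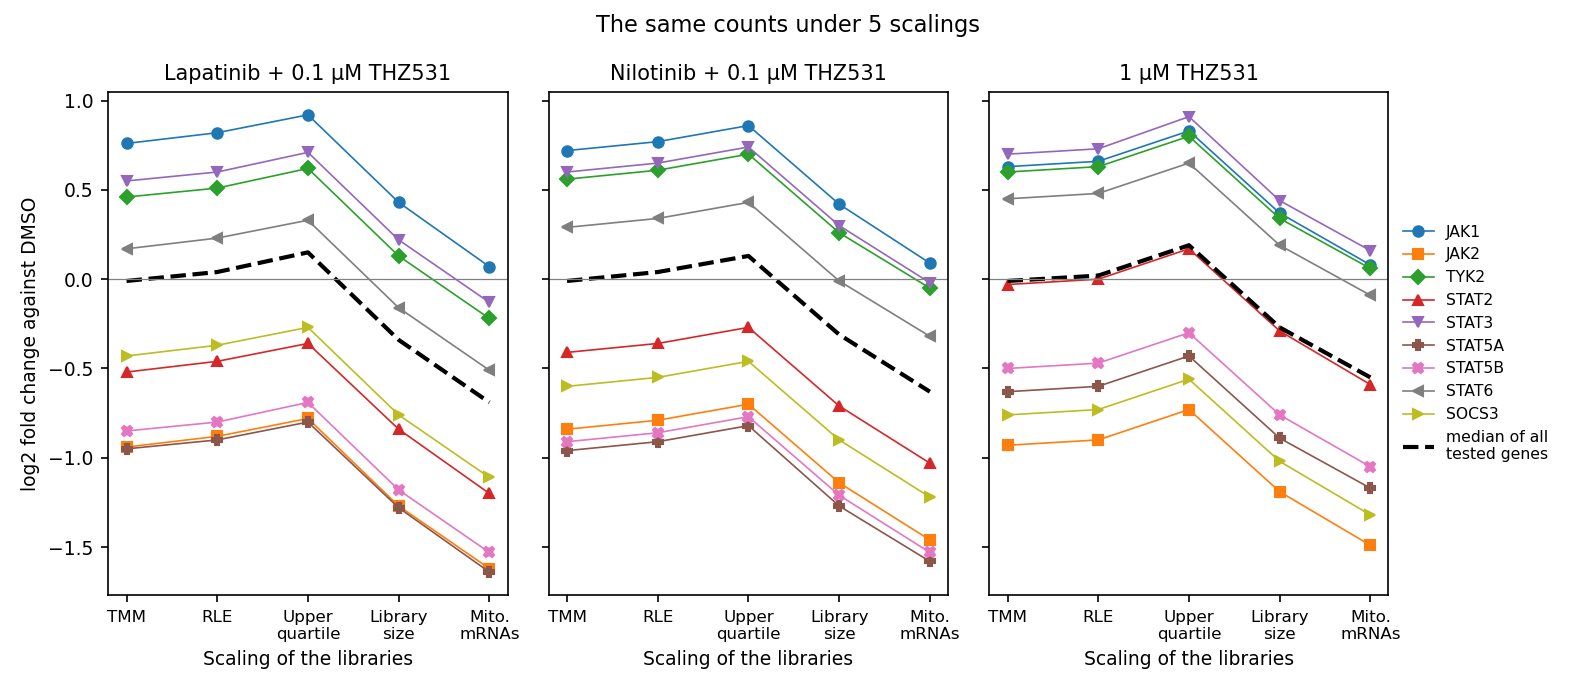
Log2 FC against DMSO of the 9 genes under 5 scalings of the same counts, 1 panel per treatment, with the median of all tested genes as a dashed line. A scaling shifts all genes of a comparison together, and with the mitochondrial mRNAs JAK1, TYK2, STAT3 and STAT6 come to lie near 0 or below.

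The combinations were compared with 1 μM THZ531 alone, to ask how far they resemble the higher dose. With lapatinib + THZ531, 4 of 9 genes were lower (16.1% of all tested genes) and 1 was higher (12.8%). With nilotinib + THZ531, 2 were lower (13.0%) and edgeR called 0 higher (11.2%). For nilotinib + THZ531, 3 of 9 differed at an unadjusted p under 0.05 in either direction, and DESeq2 called 2, both lower. STAT2 and STAT5B were lower with each combination. For STAT2 the log2 FC was -0.48 ± 0.10 (SE; edgeR adjusted p = 0.000735) with lapatinib and -0.37 ± 0.10 (0.00673) with nilotinib, and for STAT5B -0.35 ± 0.07 (0.00103) and -0.40 ± 0.07 (0.000319). Both genes were lower in 3 of 3 libraries than all libraries with 1 μM THZ531. Without nilotinib + THZ531 replicate 2, STAT2 was not called for nilotinib (-0.29, adjusted p = 0.0574). When only the groups compared were fitted it was -0.34 (adjusted p = 0.117, in a range of 0.00166 to 0.117), and that of STAT5B for lapatinib -0.33 (0.075, in a range of 0.000111 to 0.075).

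The other differences from 1 μM THZ531, all for lapatinib + THZ531, were less stable. STAT3 was lower by a log2 FC of -0.15 ± 0.05 (SE; edgeR adjusted p = 0.0327) and STAT6 by -0.28 ± 0.08 (0.00947), each in 3 of 3 libraries, and SOCS3 was higher by 0.34 ± 0.10 (0.0197) in 2 of 3. The SOCS3 groups overlapped, since lapatinib + THZ531 replicate 1 (22.2 CPM) was under 1 μM THZ531 replicate 1 (23.8 CPM). SOCS3 was not called without lapatinib + THZ531 replicate 2 (0.24, adjusted p = 0.126) or 3 (0.32, 0.0577), nor without 1 μM THZ531 replicate 2 (0.27, 0.0975) or 3 (0.28, 0.0879). STAT3 was not called without lapatinib + THZ531 replicate 2 (-0.14, 0.107) or 3 (-0.15, 0.0814), nor without 1 μM THZ531 replicate 1 (-0.14, 0.0903) or 2 (-0.14, 0.0946). STAT6 was not called without lapatinib + THZ531 replicate 2 (-0.22, 0.0619) or 1 μM THZ531 replicate 2 (-0.19, 0.0765). Of the 10 alternative settings, 6 called STAT3 (adjusted p = 0.00275 to 0.237), 9 called STAT6 (0.00129 to 0.114) and 7 called SOCS3 (0.00351 to 0.326). Some values became calls in the same way. JAK1 with lapatinib + THZ531 was higher than with 1 μM THZ531 without lapatinib + THZ531 replicate 1 (0.20, adjusted p = 0.0369). For nilotinib + THZ531, STAT5A (-0.51, 0.0194) and STAT6 (-0.24, 0.0330) were lower without its replicate 1, and SOCS3 was higher without 1 μM THZ531 replicate 1 (0.29, 0.0467).

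No difference between the combinations passed the test on these genes. EdgeR called 0 of 9 between lapatinib + THZ531 and nilotinib + THZ531 (1.47% of all tested genes), with 0 at an unadjusted p under 0.05 and 0 by DESeq2, and the log2 FC lay between -0.12 and 0.17. Lapatinib and nilotinib alone gave the same counts, 0 of 9 by edgeR (0.904% of all genes), 0 unadjusted and 0 by DESeq2. Against its own inhibitor, each combination changed 9 of 9 genes, with 72.3% of all genes called for lapatinib and 70.3% for nilotinib. Against 0.1 μM THZ531, 9 of 9 were called for lapatinib + THZ531 (71.1% of all genes) and for nilotinib + THZ531 (70.0%), and 8 of 9 for 1 μM THZ531 (70.2%), the exception being STAT2 (log2 FC 0.01 ± 0.10, edgeR adjusted p = 0.934). Against 0.1 μM THZ531, JAK2 had a log2 FC of -1.08 ± 0.10 (SE; edgeR adjusted p = 4.69e-09) with lapatinib + THZ531 and -1.07 ± 0.10 (6.56e-09) with 1 μM THZ531. JAK2 was not called between 0.1 μM THZ531 and DMSO (0.14 ± 0.09, 0.447).

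The change with both agents was also tested against the sum of the single changes on the log2 scale. For lapatinib and 0.1 μM THZ531 this interaction was called below 0 in 5 of 9 genes (32.0% of all tested genes) and above 0 in 4 (28.2%). For nilotinib it was below 0 in 4 (31.2%) and above 0 in 4 (25.6%). JAK2 had an interaction of -1.06 ± 0.13 (SE; edgeR adjusted p = 1.27e-06) with lapatinib and -0.99 ± 0.13 (3.36e-06) with nilotinib, and STAT5A of -0.81 ± 0.20 (0.00201) and -1.01 ± 0.20 (0.000281). STAT2 was called with lapatinib (-0.52 ± 0.14, 0.0027) but not with nilotinib (-0.23 ± 0.14, 0.159), and the difference between these interactions was not tested. With nilotinib it was called by library size alone (-0.47, 0.00634) and with the mitochondrial mRNAs (-0.68, 0.00268). For SOCS3 the value with lapatinib was -0.42 ± 0.15 (0.0181). It was not called without lapatinib + THZ531 replicate 1 (-0.33, adjusted p = 0.0561) or with upper-quartile scaling (-0.23, 0.153, in a range of 7.89e-05 to 0.153 over 10 alternatives). The positive interactions of JAK1, TYK2, STAT3 and STAT6 were not called when the libraries were scaled to the mitochondrial mRNAs. By library size alone, those of TYK2 and STAT6 with lapatinib and of TYK2 with nilotinib were not called.

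The 9 genes differ widely in length, from 4.15 kb for SOCS3 to 146 kb for JAK2 and 235 kb for JAK1. The lengths and the number of the hexamer AATAAA in introns are given beside the changes, and the use of polyA sites was not measured here. For JAK2 after THZ531, the study itself shows read patterns of more polyadenylation in an intron and lower downstream exons. Gene counts do not separate the exons before and after such a site, so its part in the fall of JAK2 was not tested. Introns of the reference transcripts hold 148 AATAAA in JAK2, 87 in JAK1, 80 in STAT5B and 66 in STAT3, against 11 in TYK2, 5 in STAT5A, 5 in STAT6, 4 in STAT2 and 0 in SOCS3. These introns total 138 kb in JAK2 and 128 kb in JAK1, whereas the lengths above are those of whole RefSeq genes. Over all tested genes with a length, the median log2 FC with lapatinib + THZ531 was 0.41 for genes under 10 kb (3952 genes), -0.06 for 10 to 30 kb (4362), -0.20 for 30 to 100 kb (4679) and -0.15 above 100 kb (2864). SOCS3 (-0.43) lay below the median of genes under 10 kb but between their quartiles (-0.49 and 0.85). With nilotinib + THZ531 (-0.60) and 1 μM THZ531 (-0.76) it lay below the lower quartile of that class (-0.57 and -0.56). That class is broad. In a narrower bin of 793 genes with a median length of 4.55 kb, the lower quartiles were -0.73 and -0.70. There SOCS3 lay above the lower quartile with nilotinib + THZ531 and just below it with 1 μM THZ531. Among genes above 100 kb (quartiles -0.86 and 0.42 with lapatinib + THZ531), JAK1 (0.76) lay above the upper quartile and JAK2 (-0.94) below the lower, as with the other 2 treatments. By hexamers, the median with lapatinib + THZ531 was 0.37 for genes with 0 in introns, including genes without introns (1832 genes). It was 0.01 for 1 to 10, -0.20 for 11 to 50, -0.22 for 51 to 100 and -0.16 for more. The hexamer classes cover the 13554 tested genes with a reference transcript, and the length classes the 15857 with a RefSeq length, so the gene sets differ.

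**Figure D4:**
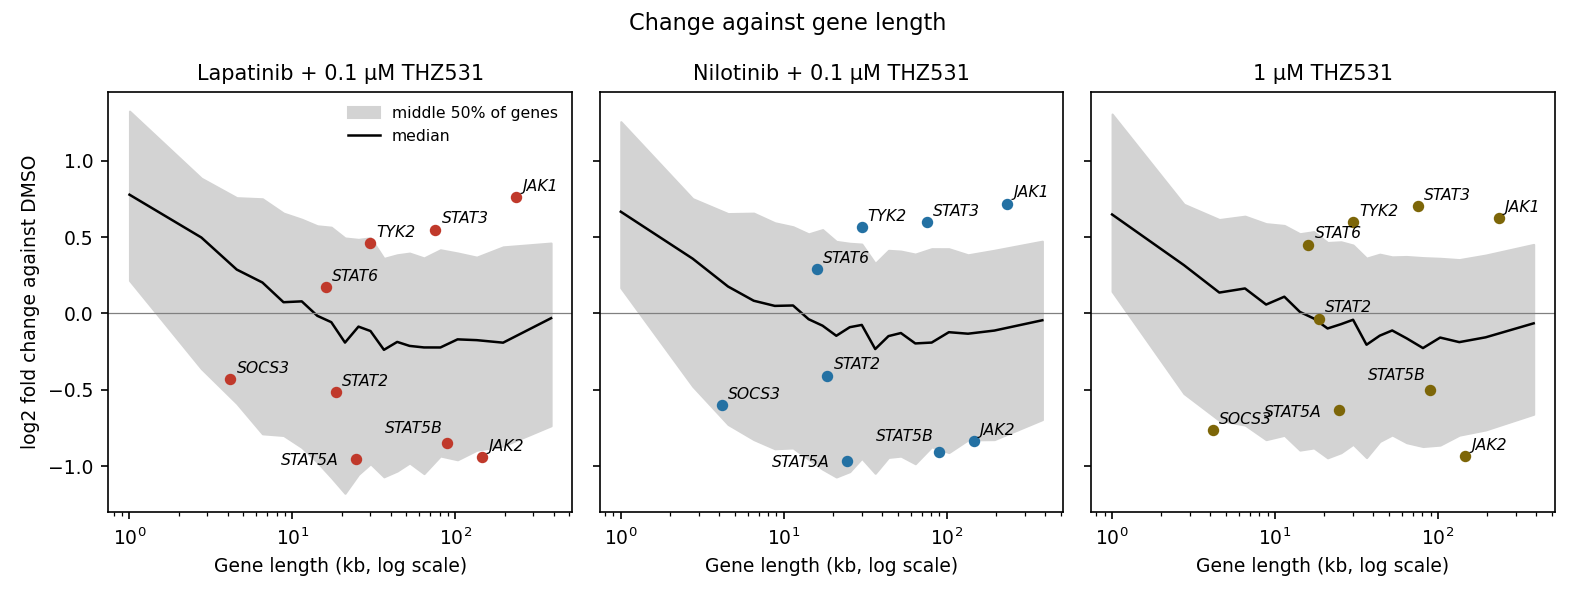
Log2 FC against DMSO (TMM scaling) against gene length in kb on a log axis, 1 panel per treatment, with the median (line) and the middle 50% (grey) of all tested genes and the 9 genes as points. SOCS3, the shortest, lies below the median of short genes, and JAK1 and JAK2, the longest, lie on opposite sides of the median of long genes.

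The genes most like JAK2 and SOCS3 were sought among 10912 genes by the distance over the 6 log2 FC against DMSO, which rest on all 21 libraries. For JAK2 they were RBBP5 (distance 0.112), METTL14 (0.119), VKORC1L1 (0.120), DTNBP1 (0.136) and NCBP3 (0.139). RBBP5 had a log2 FC of -0.94, -0.78 and -0.95 with lapatinib + THZ531, nilotinib + THZ531 and 1 μM THZ531, beside -0.94, -0.84 and -0.93 for JAK2. For SOCS3 they were HIC1 (0.101), TRAF4 (0.110), TM2D2 (0.128), MRPS17 (0.128) and KDM3A (0.145). HIC1 had -0.41, -0.57 and -0.71 beside -0.43, -0.60 and -0.76 for SOCS3. This describes likeness of pattern among many genes that fell.

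Around the 9 genes, 7 lists of other pathway genes were followed. From each, the 3 largest called falls and rises with lapatinib + THZ531 are given among genes with a mean log2 CPM of 1 or more. Results of 1 list gene are not reported, and some scarcer genes further from 0 are only counted and plotted. Of 117 tested genes on them, 8 were called with 0.1 μM THZ531 by edgeR (6.09% of all tested genes were) and 9 by DESeq2, with 23 at an unadjusted p under 0.05. With lapatinib, edgeR called 0 (12 unadjusted, 1 by DESeq2), and with nilotinib also 0 (11 unadjusted, 1 by DESeq2), where 0.312% and 0.343% of all genes were called. The genes called with 0.1 μM THZ531 were IL6R, SOCS2, PTPN2 and JUNB, which rose, and PRLR, EPOR, MX2 and OAS2, which fell under TMM. Of these 8, only PRLR was also called with the mitochondrial mRNAs. Of all tested genes, 1.5% were called lower and 0.256% higher under that scaling, against 4.31% and 1.78% under TMM. IL6R (0.37, 0.0624), SOCS2 (0.25, 0.0526) and PTPN2 (0.25, 0.0624) were not called by library size alone, IL6R (0.37, 0.0747) and PTPN2 (0.25, 0.0552) with upper-quartile scaling, and OAS2 with RLE (-0.64, 0.0631). The prolactin receptor gene PRLR, at 0.916 ± 0.0749 CPM in DMSO (SD, n = 3) and 0.344 ± 0.161 with 0.1 μM THZ531, had a log2 FC of -1.41 ± 0.26 (SE; edgeR adjusted p = 0.00279). IL6R, the IL6 receptor, went from 7.88 ± 0.334 to 10.4 ± 0.356 CPM (0.40 ± 0.12, 0.0434). It fell with lapatinib + THZ531, nilotinib + THZ531 and 1 μM THZ531 (-1.65, -1.42 and -0.76), whereas at the low dose it had risen under TMM. The interferon-induced genes MX2 (-0.78 ± 0.18, 0.013) and OAS2 (-0.66 ± 0.19, 0.0476) were low in DMSO, at 1.72 ± 0.0579 and 1.56 ± 0.312 CPM. With 1 μM THZ531, MX2 was called higher under TMM (0.50 ± 0.18, 0.0155) but not by library size alone (0.24, 0.226) or with the mitochondrial mRNAs (-0.03, 0.932).

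Scaled to the mitochondrial mRNAs, 58.4%, 55.9% and 52.5% of all tested genes were called lower and 5.30%, 4.83% and 4.35% higher with lapatinib + THZ531, nilotinib + THZ531 and 1 μM THZ531, which is the background for counts of the lists under that scaling. Of 39 receptor genes, 29 were tested. Called lower and higher under TMM were 13 and 6 with lapatinib + THZ531 (of all tested genes, 37.8% and 34.3%), 12 and 8 with nilotinib + THZ531 (37.3% and 33.7%), and 11 and 10 with 1 μM THZ531 (36.8% and 33.1%), but with the mitochondrial mRNAs 21 and 1, 20 and 1, and 16 and 2. Their median log2 FC was -0.29, -0.15 and 0.02, against -0.01 for all genes each time. With 1 μM THZ531 it turned to -0.24 by library size and -0.52 by the mitochondrial mRNAs. With upper-quartile scaling, the receptor genes called lower and higher were 10 and 11, 12 and 8, and 10 and 14. Over all tested genes the shares were then 33.1% and 40.6%, 33.1% and 39.4%, and 30.5% and 41.4%. The erythropoietin receptor EPOR, which signals through JAK2, fell from 15.9 ± 0.914 CPM to 3.35 ± 0.556 with lapatinib + THZ531 (log2 FC -2.25 ± 0.11, edgeR adjusted p = 8.54e-13), and was already lower with 0.1 μM THZ531 (-0.49 ± 0.11, 0.00802). IL4R, the receptor chain upstream of STAT6, had -1.77, -1.41 and -1.39 in the same order of treatments as above, and IL7R -1.77, -1.19 and -0.79. The leptin receptor LEPR (0.57, 0.61 and 0.66), IL13RA1 (0.62, 0.60 and 0.60) and IL11RA (0.72, 0.77 and 0.62) rose under TMM, and none of them was called with the mitochondrial mRNAs.

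Of 29 ligand genes, 15 were tested. Lower and higher under TMM were 5 and 5 with lapatinib + THZ531 (of all tested genes, 37.8% and 34.3%), 5 and 3 with nilotinib + THZ531 (37.3% and 33.7%), and 5 and 5 with 1 μM THZ531 (36.8% and 33.1%), against 5 and 2, 7 and 1, and 6 and 1 with the mitochondrial mRNAs. Their median was 0.11, -0.16 and -0.08. It was negative for lapatinib + THZ531 too by library size (-0.21) and by the mitochondrial mRNAs (-0.54), and positive for 1 μM THZ531 with upper-quartile scaling (0.12). LIF, a cytokine of the IL6 family, fell from 10.4 ± 2.06 CPM to 2.00 ± 0.565 with lapatinib + THZ531, and had a log2 FC of -2.38, -2.17 and -1.81. Its relatives CLCF1 (-1.21, -1.51 and -1.29) and IL11 (-0.89, -1.50 and -0.65) fell as well. CTF1 rose under TMM (0.45, 0.44 and 0.76), and IL6 did so with lapatinib + THZ531 (0.55 ± 0.17, edgeR adjusted p = 0.00843) and 1 μM THZ531 (0.68 ± 0.17, 0.0018) but was not called with nilotinib + THZ531 (0.39 ± 0.17, 0.0508). IL6 was not called between either combination and 1 μM THZ531. By library size alone, CTF1 and IL6 were called with 1 μM THZ531 only, and with the mitochondrial mRNAs with no treatment. With nilotinib + THZ531, IL6 was called with RLE (0.44, 0.0276) and upper-quartile scaling (0.53, 0.0123).

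The 19 other inhibitors of the pathway were all tested, and most fell. The counts lower and higher under TMM were 12 and 5 with lapatinib + THZ531 (of all tested genes, 37.8% and 34.3%), 11 and 5 with nilotinib + THZ531 (37.3% and 33.7%), and 14 and 2 with 1 μM THZ531 (36.8% and 33.1%). When scaled to the mitochondrial mRNAs they were 16 and 1, 15 and 2, and 17 and 1. Their median was -0.78, -0.87 and -0.82, and it was negative under each of the 5 scalings, at least as far from 0 as -0.62 with lapatinib + THZ531. PIAS4, which binds STATs and attaches SUMO, fell (-1.71, -1.65 and -1.61), as did SOCS4 (-1.52, -1.32 and -1.43) and the ubiquitin ligase CBL, the latter by -1.54 and -1.19 with the combinations and also with 1 μM THZ531 (adjusted p = 3.51e-06). SOCS2, which restrains growth hormone signalling, rose under TMM with 0.1 μM THZ531 (0.28 ± 0.07, edgeR adjusted p = 0.0268) and fell with the other 3 treatments (-0.78, -0.93 and -1.07). PTPN2, a phosphatase of JAK1 and STATs, rose under TMM with 0.1 μM THZ531 (0.28 ± 0.08, 0.0345) and was called lower with 1 μM THZ531 under TMM (-0.19 ± 0.08, 0.0374), but not with RLE (-0.16, 0.103) or upper-quartile scaling (0.01, 0.893). PIAS2 was called higher with the combinations under TMM (0.31 and 0.25) and was not called with 1 μM THZ531 (-0.15), and was higher with each combination than with 1 μM THZ531. By library size alone it was at -0.02 and -0.06 and not called, and with the mitochondrial mRNAs it was called lower with the combinations (-0.38 and -0.38). SOCS5 and SOCS6 behaved in another way. SOCS5 had 101 ± 10.4 CPM in DMSO, 204 ± 6.83 with lapatinib + THZ531 and 93.6 ± 27.2 with 1 μM THZ531, and SOCS6 had 20.7 ± 1.5, 43.5 ± 2.80 and 19.6 ± 6.57 CPM. Their log2 FC was 1.02, 0.96 and -0.11 and 1.07, 1.03 and -0.08, called under TMM for the combinations only. Both were also called higher with each combination than with 1 μM THZ531. With the mitochondrial mRNAs, SOCS5 was not called with lapatinib + THZ531 (0.33, 0.0946) or nilotinib + THZ531 (0.33, 0.0937), nor SOCS6 with lapatinib + THZ531 (0.38, 0.0524), whereas SOCS6 was with nilotinib + THZ531 (0.39, 0.0472), and both were called lower with 1 μM THZ531 (-0.67 and -0.64). The scarce PTPN6, chosen after its values were seen because it stands alone in the plot of pathway genes, had a log2 FC of 4.14, 3.75 and 4.58.

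**Figure D5:**
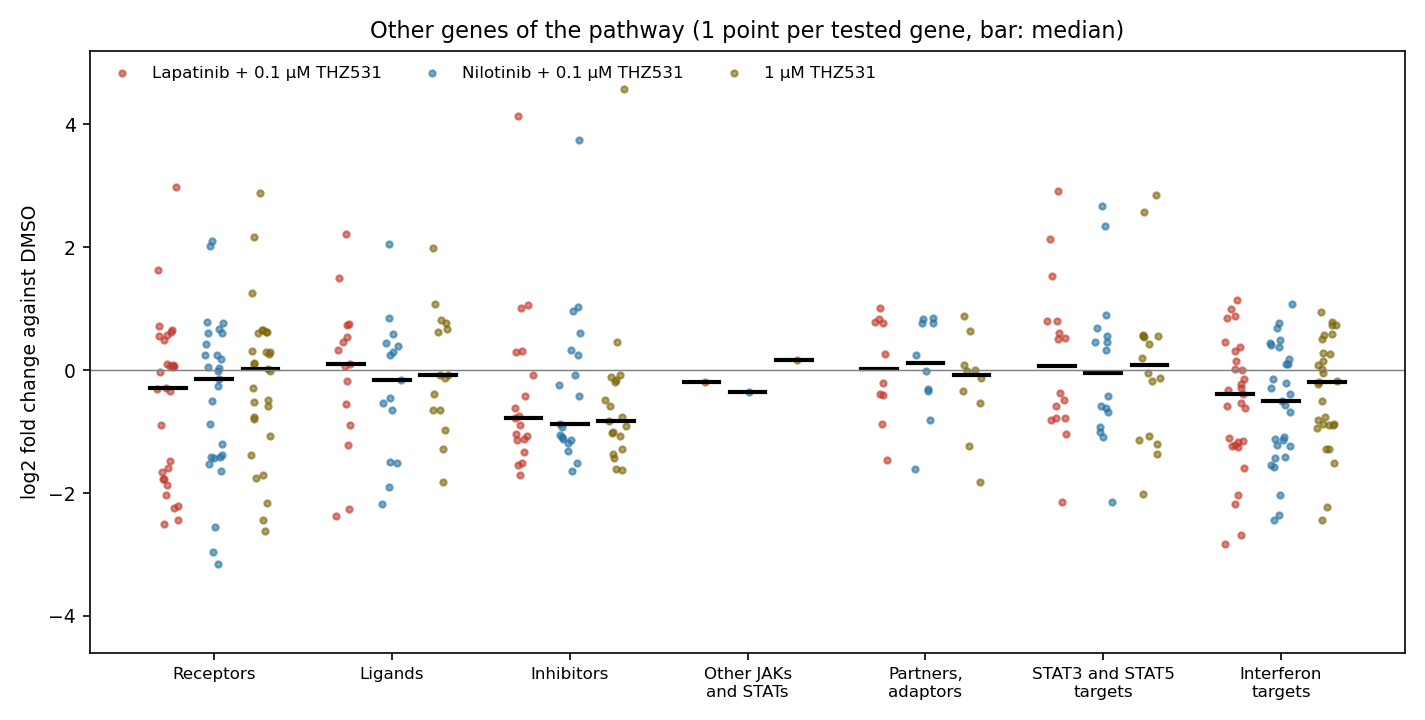
Log2 FC against DMSO (TMM scaling) of each tested gene of 7 pathway lists (points) with the median of each list (bar), for 3 treatments. The medians of the inhibitors lie furthest below 0, and remain below 0 under each of the 5 scalings.

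Of other kinases and STATs, JAK3 had 0 to 2 counts per library and was not tested. STAT4 was not called with any treatment under TMM, was called lower with the combinations when scaled to the mitochondrial mRNAs and with nilotinib + THZ531 by library size alone (-0.66), and had 25 to 89 counts per library. The 10 partners and adaptors were all tested. Under TMM, the counts lower and higher were 5 and 4 with lapatinib + THZ531 (of all tested genes, 37.8% and 34.3%), 4 and 4 with nilotinib + THZ531 (37.3% and 33.7%), and 4 and 2 with 1 μM THZ531 (36.8% and 33.1%), and they turned to 6 and 1, 6 and 0, and 8 and 1 with the mitochondrial mRNAs. The median was 0.03, 0.12 and -0.07, negative in all 3 by library size or mitochondrial mRNAs and positive in all 3 with upper-quartile scaling. IRF9, the DNA-binding partner of STAT2, fell from 11.2 ± 0.337 CPM to 4.05 ± 0.244, 3.70 ± 0.207 and 3.18 ± 0.0688 CPM (-1.47, -1.60 and -1.82). Of these partners, IRF9 thus fell with all 3 treatments and STAT2 with the combinations, as mRNA under TMM. The coactivator EP300 (-0.88, -0.81 and -1.23) and the JAK2 adaptor SH2B1 (-0.40, -0.34 and -0.53) fell, and GRB2 (0.78, 0.83 and 0.64) and HDAC1 (0.83, 0.85 and 0.88) rose under TMM. STAM, an adaptor that binds Janus kinases, rose under TMM with the combinations and was not called with 1 μM THZ531 (1.02, 0.77 and 0.09), and was called higher with each combination than with 1 μM THZ531. With the mitochondrial mRNAs, the only rises called among these were HDAC1 with 1 μM THZ531 (0.34, 0.0463) and STAM with lapatinib + THZ531 (0.33, 0.0482). The fall of SH2B1 with nilotinib + THZ531 was not called with upper-quartile scaling (-0.20, 0.0537).

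Of 18 target genes of STAT3 and STAT5, 16 were tested. They had counts lower and higher, under TMM, of 7 and 8 with lapatinib + THZ531 (of all tested genes, 37.8% and 34.3%), 7 and 8 with nilotinib + THZ531 (37.3% and 33.7%), and 5 and 6 with 1 μM THZ531 (36.8% and 33.1%). With the mitochondrial mRNAs instead, 7 and 3, 7 and 2, and 8 and 2 were called. The median was 0.07, -0.04 and 0.08 under TMM, and negative in all 3 by library size or mitochondrial mRNAs. It was positive in all 3 with upper-quartile scaling (0.22, 0.09 and 0.28). JUNB, a transcription factor gene of the early response, rose from 35.4 ± 1.45 CPM in DMSO to 267 ± 3.77, 225 ± 6.52 and 211 ± 22.5 CPM (2.92, 2.67 and 2.57), and was already higher under TMM with 0.1 μM THZ531 (0.31 ± 0.06, edgeR adjusted p = 0.0063). CEBPD (1.53, 0.90 and 0.53) also rose under TMM, and with the mitochondrial mRNAs was called with lapatinib + THZ531 only (0.84, 1.25e-05). By library size alone, it was not called with 1 μM THZ531 (0.27, 0.0539). BCL6 rose under TMM with the combinations (0.81 and 0.69) and was not called with 1 μM THZ531 (0.20), and against 1 μM THZ531 it was called higher for lapatinib + THZ531. It was not called so for nilotinib + THZ531, and its difference between the combinations is not given here. The rise of BCL6 was not called by library size alone with nilotinib + THZ531 (0.39, 0.0729), or with the mitochondrial mRNAs with either combination (0.11 and 0.06), and with upper-quartile scaling it was called with 1 μM THZ531 too (0.39, 0.0489). BCL3 (-2.14, -2.15 and -2.02) and the survival gene BCL2L1 (-0.78, -0.68 and -1.21) fell, and ICAM1 fell with the combinations (-0.81 and -1.01) but was not called with 1 μM THZ531 (-0.17), and was called lower with each combination than with 1 μM THZ531. ICAM1 was called lower with 1 μM THZ531 as well by library size alone (-0.43, 0.00747) and with the mitochondrial mRNAs (-0.72, 5.89e-05).

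Of 31 interferon target genes, 29 were tested. Under TMM, 15 and 6 with lapatinib + THZ531 (of all tested genes, 37.8% and 34.3%), 15 and 6 with nilotinib + THZ531 (37.3% and 33.7%), and 11 and 7 with 1 μM THZ531 (36.8% and 33.1%) were called lower and higher, and 19 and 1, 20 and 1, and 18 and 1 with the mitochondrial mRNAs. The median was -0.39, -0.50 and -0.20. It was negative under every scaling for the combinations, and 0.01 for 1 μM THZ531 with upper-quartile scaling. DTX3L (-2.68, -2.36 and -2.22) and PARP9 (-2.04, -1.58 and -0.90), whose proteins form a complex, fell, and so did IFIT5 (-2.18, -2.44 and -2.44). The ubiquitin-like modifier ISG15 (1.14, 1.08 and 0.94), the membrane protein BST2 (0.89, 0.68 and 0.73) and IFI6 (0.99, 0.49 and 0.74) rose under TMM. Of these 3, only ISG15 was called with the mitochondrial mRNAs (0.46, 0.46 and 0.41), and by library size alone IFI6 was not called with nilotinib + THZ531 (0.19, 0.283). No interferon gene on the ligand list except IFNE was tested, and IFNB1, IFNG and IFNL1 had at most 2, 0 and 4 counts in any library.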

How the data were processed

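Gene-level counts were deposited by the authors as raw whole numbers for 21 libraries, after alignment to GRCh38 with HISAT2 2.1.0 (submitters' processing notes) and counting with featureCounts. Whether pairs or single reads were counted, and the annotation used for counting, are not given in the sources used here. If single reads were counted, both reads of a pair add to the counts given here, which then exceed the number of fragments. Of 28395 Entrez gene IDs, 27745 matched a current symbol. Columns were assigned to groups by their labels.

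Counts were filtered with filterByExpr, scaled by TMM and fitted for all 21 libraries with 1 mean per group in edgeR 4.0.16 (R 4.3.3), using the quasi-likelihood test with Benjamini-Hochberg adjustment over 16036 genes. In all, 17 comparisons were made. CPM and RPKM values were computed from the deposited counts. The steps were also run on simulated counts in which few genes changed, as many up as down. That run could therefore not test the choice of scaling. Replicates differed by more than counting noise, with chi-square values of 7.78 to 145 for each degree of freedom.

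The alternatives were RLE, library size alone, upper-quartile scaling, scaling to 13 mitochondrial mRNAs, no filter, at least 10 counts in every library, a replicate block, halved counts, only the groups compared, DESeq2 1.42.0, and leaving out each of the 21 libraries. Gene coordinates and lengths came from the RefSeq annotation of GRCh38. Reference transcripts are those tagged MANE Select in GENCODE 44.

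PTPN6 was named after its values were seen, and JAK3, STAT4, the marker genes and the interferon ligand genes were named outside the rule below. All other genes with a log2 FC were named by rule. These are the 9 genes themselves; for JAK2 and SOCS3 the 5 genes with the smallest Euclidean distance over the 6 log2 FC against DMSO, among genes whose mean log2 CPM reached 1; from each list the 3 lowest and 3 highest called with lapatinib + THZ531 under the same limit on level; and each list gene called with 0.1 μM THZ531, lapatinib or nilotinib alone. The 9 genes and the lists were chosen with earlier results of these data known. Of 1 list gene and 1 sequence, results are not reported here.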

Additional observations from a re-analysis of the deposited data

Results flagged for a closer look

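The change with a combination differed from the sum of the single changes, by edgeR's test of the interaction on the log2 scale, for all of the 9 genes with lapatinib (32.0% of all tested genes below 0 and 28.2% above) and for 8 of them with nilotinib (31.2% and 25.6%). With lapatinib and 0.1 μM THZ531, the interaction was 0.77 for JAK1, -1.06 for JAK2 and 0.33 for TYK2. Among the STATs it was -0.52 for STAT2, 0.57 for STAT3, -0.81 for STAT5A, -0.89 for STAT5B and 0.43 for STAT6, and for SOCS3 it was -0.42, which was not called with upper-quartile scaling (-0.23, adjusted p = 0.153) or without lapatinib + THZ531 replicate 1 (-0.33, adjusted p = 0.0561).

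With nilotinib and 0.1 μM THZ531, it was 0.76 for JAK1, -0.99 for JAK2 and 0.33 for TYK2. It was 0.69 for STAT3, -1.01 for STAT5A, -0.88 for STAT5B, 0.56 for STAT6 and -0.55 for SOCS3. Both interactions use the same DMSO and 0.1 μM THZ531 libraries. The values above 0 were not called after scaling to mitochondrial mRNAs. By library size alone, those of TYK2 and STAT6 with lapatinib and of TYK2 with nilotinib were not called either.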

How the results depend on the processing

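For the 9 genes in 10 comparisons (6 against DMSO, 2 against 1 μM THZ531 and 2 interactions), the call, and for results called in either fit the sign, were the same in 88 of 90 results with RLE, 87 with upper-quartile scaling, 79 by library size alone, 66 with mitochondrial mRNAs, 89 without a filter, 89 with at least 10 counts in every library, 89 with halved counts, 84 with only the groups compared and 89 by DESeq2.

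With mitochondrial mRNAs, log2 FC changed sign with lapatinib + THZ531 for TYK2 (-0.22), STAT3 (-0.13) and STAT6 (-0.51), with nilotinib + THZ531 for TYK2 (-0.05), STAT3 (-0.02) and STAT6 (-0.32), and with 1 μM THZ531 for STAT6 (-0.09). The interactions with lapatinib of TYK2 (-0.22) and STAT6 (-0.12) and that with nilotinib of TYK2 (-0.12) did so too. By library size, STAT6 was at -0.16 with lapatinib + THZ531 and -0.01 with nilotinib + THZ531. The count of genes called higher went to 0 with mitochondrial mRNAs for both combinations and 1 μM THZ531 against DMSO (5.30%, 4.83% and 4.35% of all tested genes), and for both interactions (3.70% each). By library size the count above 0 for the lapatinib interaction went from 4 to 2 (28.2% to 14.9% of all tested genes). For the nilotinib interaction it went from 4 to 3 (25.6% to 12.8%), with TYK2 no longer called. The count below 0 went from 4 to 5 there (31.2% to 38.4%).

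With 0.1 μM THZ531, 1 gene was called lower by library size and with only the groups compared. Of all tested genes, 5.32% and 6.97% were called lower there, against 4.31% in the main fit. For lapatinib + THZ531 against 1 μM THZ531, the count called higher went from 1 to 0 by library size, with mitochondrial mRNAs and with only the groups compared. The share of all tested genes called higher went from 12.8% to 10.1%, 5.96% and 7.64%. With only the groups compared, the count called lower went from 4 to 1 (16.1% to 8.26% of all tested genes). For nilotinib + THZ531 the count called lower went from 2 to 1 there (13.0% to 6.29%). It went to 3 by library size and with upper-quartile scaling (15.8% and 16.9%). Fits of only the groups compared have fewer libraries to estimate the spread. Otherwise the cause was not tested.

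Without each of the 21 libraries in turn, 1867 of 1890 results were the same by this rule, 12 lost and 11 gained a call, and 0 called in either fit changed sign. Signs of values near 0 that were not called did change, as for STAT2 with 1 μM THZ531 (-0.03, up to 0.05). The counts called lower and higher ranged from 0 to 1 and stayed at 0 with 0.1 μM THZ531, and stayed at 0 with lapatinib or nilotinib alone. They were 5 and 3 to 4 with lapatinib + THZ531, 5 and 4 with nilotinib + THZ531, and 4 and 4 with 1 μM THZ531. Against 1 μM THZ531 they were 2 to 4 and 0 to 2 for lapatinib + THZ531, and 1 to 4 and 0 to 1 for nilotinib + THZ531. Interactions had 4 to 5 and 4 for lapatinib, and 4 and 4 for nilotinib.

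Libraries share only a replicate number, which was not taken as pairing because not every pair correlated above 0.1. Of 63 pairs of libraries with the same number, 35 had deviations from their group means that correlated above 0.1 over 10913 genes, with a mean of 0.115 (-0.718 to 0.806) against -0.0541 for other numbers, and 8 of 21 libraries were closest to their own number. A replicate block changed 0 of 90 results: the counts lower and higher were 5 and 3, 5 and 4, and 4 and 4 with lapatinib + THZ531, nilotinib + THZ531 and 1 μM THZ531. At 98 to 332 counts, STAT5A was measured least precisely.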
